A study of Mus musculus with 6 samples.

Results

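The 36 genes described here encode the machinery with which cells make, import, move and export cholesterol. They were taken by symbol, and all 36 were found among the 54658 genes of the count tables. By role, 18 are enzymes of synthesis, 5 belong to the sterol sensor that switches synthesis on and off, 7 act in uptake and intracellular handling, and 6 act in efflux and removal. Of these, 34 passed the expression filter and were tested.

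The tissue was nucleus accumbens, a ventral striatal region, from adult male C57BL6 mice bought at 8 weeks of age. In the Gas5 group (3 libraries, A to C) a herpes simplex virus vector delivered Gas5, a long noncoding RNA, along with EGFP. In the GFP group (3 libraries, A to C) a vector of the same kind delivered EGFP alone, so every animal received a virus, EGFP and an injection. The labels name no promoter, no time after injection and no sorting, so each library mixes transduced and other cells, and they do not say whether a library is 1 mouse or a pool. In such bulk tissue, fewer cells of a type and less RNA per cell cannot be told apart. The series asks about Gas5 in cocaine action, and the labels of these 6 libraries name no drug.

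Total counts lay between 38605056 and 42524874 in the Gas5 libraries and between 32359052 and 56081575 in the GFP libraries. Gas5, the delivered gene, stood at 22.6, 23.3 and 23.6 CPM (counts scaled to library size, with TMM factors) in the Gas5 libraries, against 18.6, 16.5 and 18.3 CPM in the GFP libraries, and the log2 fold change was 0.38 (standard error 0.0633, edgeR adjusted p 0.0164). That call was lost without GFP B (edgeR adjusted p 0.0727) or without GFP C (0.0677). Medium spiny neuron markers, which define this tissue, summed to between 4886 and 6292 CPM in the Gas5 libraries, against between 5821 and 6601 CPM in the GFP libraries, and none of the 12 was at 0. Cortical excitatory neuron markers set the libraries apart, at a mean log2(CPM + 0.5) of 1.804, 2.531 and 2.702 across Gas5 A to C, against 3.763, 4.262 and 4.321 across GFP A to C, and 9 of the 12 were called lower.

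Cholesterol does not cross from blood into the brain, so brain cells make their own. Synthesis runs from acetyl-CoA through mevalonate, squalene and lanosterol. When membrane sterol is low, Scap carries the transcription factor SREBP2 out of the endoplasmic reticulum and the synthesis genes are transcribed, and Insig proteins hold Scap back when sterol is plentiful. When sterol is in excess, its oxidised derivatives activate the LXR receptors, which induce exporters such as Abca1 and Abcg1. Oligodendrocytes use cholesterol for myelin, astrocytes and microglia secrete it on Apoe particles, and neurons clear it by hydroxylation through Cyp46a1.

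Of the synthesis enzymes 3 of 16 tested, and of the sterol sensor 1 of 5, were called lower in the Gas5 libraries, and no member was called higher. In the Gas5 group the mean of Insig1 fell by 27.6% relative to GFP, that of Hmgcs1 fell by 23.7%, that of Sqle fell by 22.7% and that of Msmo1 fell by 16.9%. Abca1, Npc2 and Apoe had positive log2 fold changes of 0.34, 0.29 and 0.23 that did not pass the test. Of 34 tested members, 4 were called lower at an edgeR adjusted p under 0.05, where 3.96% of all 17563 tested genes were, and 0 were called higher, where 1.48% of all were. At an unadjusted p under 0.05 there were 11 lower members, where 11.2% of all tested genes were lower, and 5 higher members, where 10.2% of all were higher. DESeq2 called 6 members lower, against 5.71% of all genes it gave an adjusted p, and 1 higher, against 2.76%. Limma-voom called 4 lower, against 3.79% of all genes, and 0 higher, against 1.23%. The exact test of edgeR called 7 lower, against 6.22% of all genes, and 2 higher, against 3.88%. The counts of higher members thus lay near the shares over all genes. All 3 Gas5 libraries lay below all 3 GFP libraries for 12 members, where 13.9% of all tested genes did so, and above them for 5, where 13.8% did so. The median log2 fold change was -0.07 over the members and 0.02 over all tested genes.

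**Figure D1:**
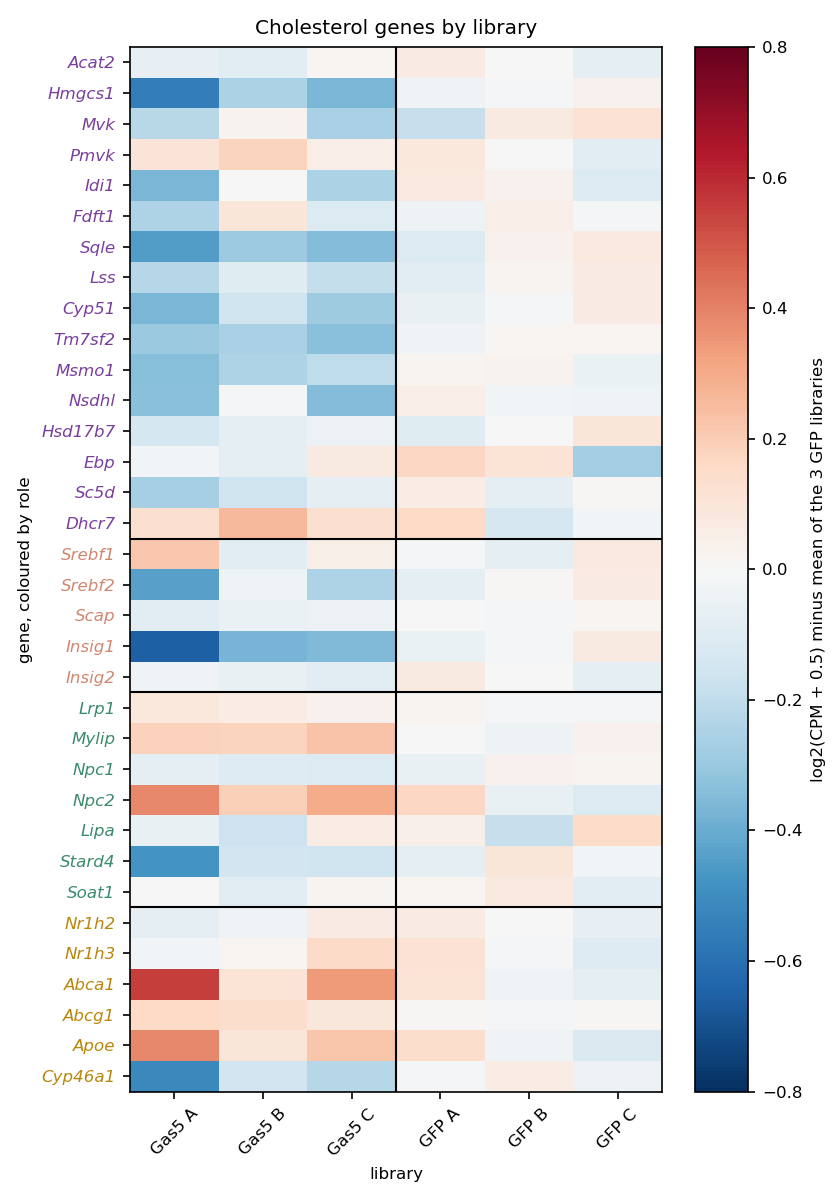
Level of each of the 34 tested genes in the 6 libraries, as log2(CPM + 0.5) minus the mean of the 3 GFP libraries, with genes down the page by role and libraries across. Blue marks a level below the GFP mean and red one above it. The rows of Hmgcs1, Sqle, Msmo1 and Insig1 are blue in all 3 Gas5 libraries, and the rows of Abca1, Npc2 and Mylip are red there.

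Among the enzymes of synthesis, Hmgcs1, which condenses acetyl units into HMG-CoA at the head of the mevalonate route, was the most abundant per length. It stood at 30.1, 37.2 and 34.3 CPM in Gas5 A, B and C, against 43.6, 44.0 and 45.6 CPM in GFP A, B and C. The groups did not overlap, and Gas5 A was the lowest library. The log2 fold change was -0.39 (standard error 0.0748, edgeR adjusted p 0.0250). Its GRCm38 position is chromosome 13, 119690379 to 119708260, and 34.6% of these bases also belong to the antisense gene Gm48342, where no reads are counted. Sqle, the squalene epoxidase that catalyses the first oxygen-dependent step, stood at 15.8, 17.7 and 17.0 CPM in the Gas5 libraries, against 20.1, 22.3 and 22.9 CPM in the GFP libraries. Its groups did not overlap either, and the log2 fold change was -0.37 (standard error 0.0721, edgeR adjusted p 0.0265). Msmo1, the oxidase that removes methyl groups from lanosterol derivatives, stood at 20.2, 21.6 and 22.3 CPM in the Gas5 libraries, against 26.2, 26.2 and 24.8 CPM in the GFP libraries. Every Gas5 library was below every GFP library, and the log2 fold change was -0.27 (standard error 0.0581, edgeR adjusted p 0.0371). Sqle lies on chromosome 15 from 59315077 to 59331192 and Msmo1 on chromosome 8 from 64718139 to 64733792, and neither shares its span with another listed gene.

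The remaining enzymes of synthesis were not called. Of all 16 tested, 14 had negative log2 fold changes, and the median was -0.17. Cyp51, the lanosterol demethylase, stood at 27.3, 31.6 and 29.0 CPM in the Gas5 libraries, against 33.9, 35.2 and 37.0 CPM in the GFP libraries. It was just outside the threshold although its libraries did not overlap, with an estimated log2 fold change of -0.27 and an edgeR adjusted p of 0.0510. Tm7sf2, a sterol reductase, stood at 5.47, 5.63 and 5.32 CPM in the Gas5 libraries, against 6.69, 6.90 and 6.89 CPM in the GFP libraries. Its groups were also apart, with an estimated log2 fold change of -0.32 and an edgeR adjusted p of 0.0655, but other genes cover 65.1% of its bases, where reads are not counted. Lss, the lanosterol synthase, and Sc5d, a desaturase, had log2 fold changes of -0.18 and -0.17, with every Gas5 library below every GFP library. Nsdhl, a sterol dehydrogenase, and Idi1, the isomerase that makes the reactive isoprene unit, had log2 fold changes of -0.23 and -0.25, with overlapping libraries. Mvk, the mevalonate kinase, Hsd17b7, a sterol ketoreductase, and Fdft1, the squalene synthase, lay between -0.15 and -0.08, and Acat2, the thiolase that joins acetyl units, and Ebp, a sterol isomerase, lay at -0.05 and -0.03. Pmvk, the kinase after Mvk, and Dhcr7, the reductase at the end of the route, had positive log2 fold changes of 0.11 and 0.17. The groups overlapped for both of them, and neither was called.

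Mvd and Fdps, the decarboxylase and the farnesyl diphosphate synthase of the mevalonate route, could not be measured. Mvd had 0 counts in all 6 libraries, and its whole span is shared with Gm20388 on the opposite strand. For Fdps 89.7% of the span is shared, and between 5 and 14 counts per library remained. None of the 1284 protein-coding genes wholly shared with other genes had a count in these tables, so neither gene can be said to be silent.

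Libraries of the Gas5 group were not alike in synthesis. Gas5 A was the lowest of the 6 libraries for 9 of the 16 tested enzymes, against 1 for Gas5 B and 3 for Gas5 C. The share of all tested genes that were lowest in Gas5 A was not counted, so this number has no background. The mean log2(CPM + 0.5) of the 16 enzymes was 3.68, 3.84 and 3.75 across Gas5 A to C, against 3.92, 3.92 and 3.90 across GFP A to C. The GFP libraries thus lay within a narrow band for this mean, and all 3 Gas5 libraries lay below it. Over all 17563 tested genes the mean was 3.565, 3.557 and 3.545 across Gas5 A to C, against 3.553, 3.542 and 3.555 across GFP A to C.

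**Figure D2:**
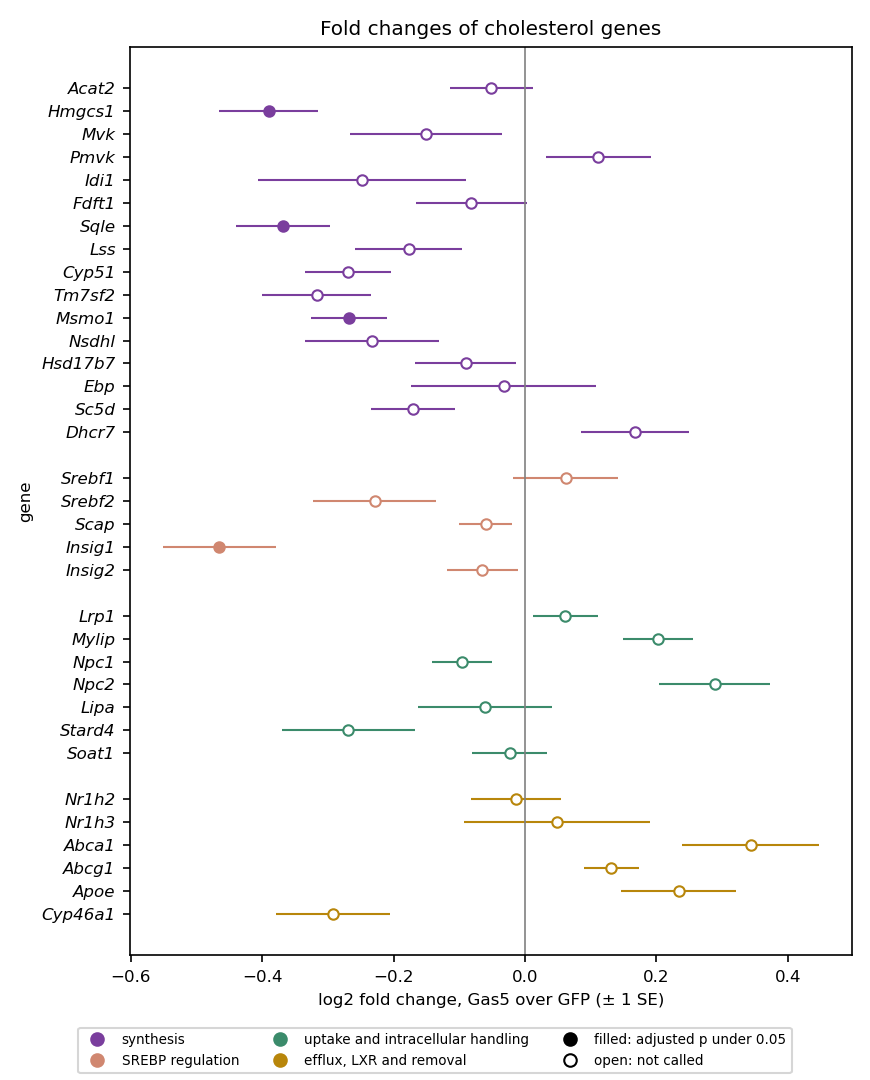
Log2 fold change of Gas5 over GFP for the 34 tested genes, with bars of 1 standard error from edgeR, ordered by role. Filled points passed an adjusted p under 0.05, which Hmgcs1, Sqle, Msmo1 and Insig1 did, all to the left of 0. Abca1, at 0.34, lies farthest to the right and is open.

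The sterol sensor held the member with the largest fold change. Insig1, the retention protein whose own gene is a target of SREBP2, stood at 15.7, 19.2 and 19.4 CPM in Gas5 A, B and C, against 24.1, 24.7 and 26.3 CPM in GFP A, B and C. The groups were well apart, and the log2 fold change was -0.47 (standard error 0.0860, edgeR adjusted p 0.0224). It lies on chromosome 5 from 28071363 to 28078662 and shares none of this span. Insig2, its paralog, had a log2 fold change of -0.07 with overlapping libraries. The level of Insig1 over that of Insig2, each as CPM per kilobase of unshared span, was 1.67, 2.08 and 2.15 in the Gas5 libraries, against 2.37, 2.56 and 2.87 in the GFP libraries. This ratio within a library does not depend on scaling, and its groups did not overlap.

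Srebf2, which encodes SREBP2, stood at 122, 161 and 139 CPM in Gas5 A, B and C, against 157, 166 and 172 CPM in GFP A, B and C. Gas5 A and C were below every GFP library, and Gas5 B was not, and the log2 fold change was -0.23 (standard error 0.0933, edgeR adjusted p 0.200). Srebf1, whose protein drives mainly fatty acid genes, had a log2 fold change of 0.06 with overlapping libraries. The ratio of Srebf2 to Srebf1, per kilobase, was 0.941, 1.54 and 1.21 in the Gas5 libraries, against 1.41, 1.56 and 1.46 in the GFP libraries, and the groups overlapped. Scap, the escort protein, stood at 57.8, 59.1 and 59.4 CPM in the Gas5 libraries, against 61.1, 60.7 and 62.0 CPM in the GFP libraries. Its groups did not overlap, but its log2 fold change of -0.06 (standard error 0.0400, edgeR adjusted p 0.436) was not called.

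The promoters of Hmgcs1 and Insig1, the called members at the head of the route and in its feedback, are shown because their RefSeq windows lie mostly before the gene. The window of Msmo1, with 3 CCAAT boxes, lies mostly inside its annotated gene and is not printed. They are printed from 5′ to 3′ on the plus strand of GRCm38.p6. The stretch of Hmgcs1 ends at the base before the RefSeq start, and that of Insig1 ends 49 bases earlier, where the gene of the count tables begins. Capitals mark matches to a motif for SREBP (TCACNCCAC) and to the CCAAT box bound by NF-Y, a frequent partner of SREBP. A CCAAT box on the minus strand reads ATTGG here.
Hmgcs1, chr13:119690101-119690350: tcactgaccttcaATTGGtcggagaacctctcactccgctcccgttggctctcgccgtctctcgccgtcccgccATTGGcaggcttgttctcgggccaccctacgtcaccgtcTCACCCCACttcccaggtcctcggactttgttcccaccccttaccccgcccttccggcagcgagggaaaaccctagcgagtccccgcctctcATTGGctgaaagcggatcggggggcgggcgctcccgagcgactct
Insig1, chr5:28071162-28071362: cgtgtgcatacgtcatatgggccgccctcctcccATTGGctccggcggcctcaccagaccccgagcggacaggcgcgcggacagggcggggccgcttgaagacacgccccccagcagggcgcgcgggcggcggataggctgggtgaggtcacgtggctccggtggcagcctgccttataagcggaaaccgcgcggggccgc

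Counted from the RefSeq start, the SREBP motif of Hmgcs1 begins at position -137, between CCAAT boxes that begin at -176 and -45, and the CCAAT box of Insig1 begins at -216. Windows of 300 bases around the start were found for 30 of the 36 members and searched on both strands, each motif on its own. The SREBP motif occurred in 1 of the 30, Hmgcs1, against 1.36% of the 12560 tested genes with a window. The CCAAT box occurred in 23 of the 30, or 76.7%, against 42.1% of tested genes with a window. It was present in 14 of 15 synthesis genes and in 9 of 15 other members. Some genes have more than 1 window, and a gene counted if any of its windows matched. By window, the CCAAT box occurred in 24 of 41 member windows, or 58.5%, against 37.4% of all 32851 windows. These are matches of letters in short windows, given as a description, and binding was not tested.

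Uptake and handling genes had 3 positive and 4 negative log2 fold changes. Of the 7 tested, edgeR called 0, with 2 higher and 1 lower at an unadjusted p under 0.05 (10.2% and 11.2% of all tested genes). DESeq2 and limma-voom called 0 each, and the exact test called 1, higher, against 3.88% of all genes. Npc2, the lysosomal protein that hands cholesterol to Npc1, stood at 32.8, 28.7 and 31.0 CPM in Gas5 A, B and C, against 28.3, 24.0 and 23.3 CPM in GFP A, B and C. No Gas5 library was as low as any GFP library, though Gas5 B cleared GFP A only narrowly, and the log2 fold change was 0.29 (standard error 0.0843, edgeR adjusted p 0.0908). Npc1, its membrane partner, had a log2 fold change of -0.10, in the other direction and with narrowly separate groups, and was not called. Mylip, the LXR-induced ligase that degrades lipoprotein receptors, stood at 20.9, 20.8 and 21.5 CPM in the Gas5 libraries, against 18.4, 17.8 and 18.7 CPM in the GFP libraries. These groups were tight and did not overlap, and the log2 fold change was 0.20 (standard error 0.0533, edgeR adjusted p 0.0660).

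Stard4, a carrier of sterol between membranes and a known SREBP2 target, stood at 9.83, 12.4 and 12.4 CPM in Gas5 A, B and C, against 13.2, 14.9 and 13.7 CPM in GFP A, B and C. Every Gas5 library lay below the GFP libraries, but the log2 fold change of -0.27 (standard error 0.101, edgeR adjusted p 0.169) was not called. Lrp1, the large receptor that takes up Apoe particles, stood at 642, 631 and 620 CPM in the Gas5 libraries, against 615, 602 and 598 CPM in the GFP libraries. These groups did not overlap, but the log2 fold change of 0.06 was not called. Lipa, the lysosomal lipase that frees cholesterol from its esters, and Soat1, which makes such esters, had log2 fold changes of -0.06 and -0.02 with overlapping libraries.

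The exporters Abca1 and Abcg1 had positive log2 fold changes and the neuronal removal enzyme Cyp46a1 a negative one, none of them past the threshold. Of the 6 members in efflux and removal edgeR called 0, with 3 higher and 1 lower at an unadjusted p under 0.05 (10.2% and 11.2% of all tested genes). Limma-voom called 0, and DESeq2 and the exact test each called 1 higher and 1 lower. Of all genes DESeq2 called 2.76% higher and 5.71% lower, and the exact test 3.88% and 6.22%. Abca1, which loads cholesterol onto apolipoproteins, stood at 182, 133 and 156 CPM in Gas5 A, B and C, against 133, 121 and 117 CPM in GFP A, B and C. Gas5 B and GFP A were level and the other libraries were apart, and the log2 fold change was 0.34 (standard error 0.104, edgeR adjusted p 0.101). Abcg1, which exports to formed particles, stood at 127, 125 and 121 CPM in the Gas5 libraries, against 114, 112 and 115 CPM in the GFP libraries. Its groups did not overlap, and its log2 fold change was 0.13 (standard error 0.0419, edgeR adjusted p 0.114).

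Apoe, the main apolipoprotein of the brain, averaged 206 CPM ± 20.6 in the Gas5 group and 175 CPM ± 16.2 in the GFP group (SD, n = 3 each). Gas5 B lay below GFP A, and the log2 fold change of 0.23 had an edgeR adjusted p of 0.166. The LXR genes Nr1h2 and Nr1h3 had log2 fold changes of -0.01 and 0.05, and their libraries overlapped. Cyp46a1, the neuronal hydroxylase that turns cholesterol into a form that leaves the brain, stood at 75.3, 96.7 and 92.0 CPM in Gas5 A, B and C, against 107, 112 and 104 CPM in GFP A, B and C. All Gas5 libraries were lower, Gas5 A most, and the log2 fold change was -0.29 (standard error 0.0870, edgeR adjusted p 0.0962).

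**Figure D3:**
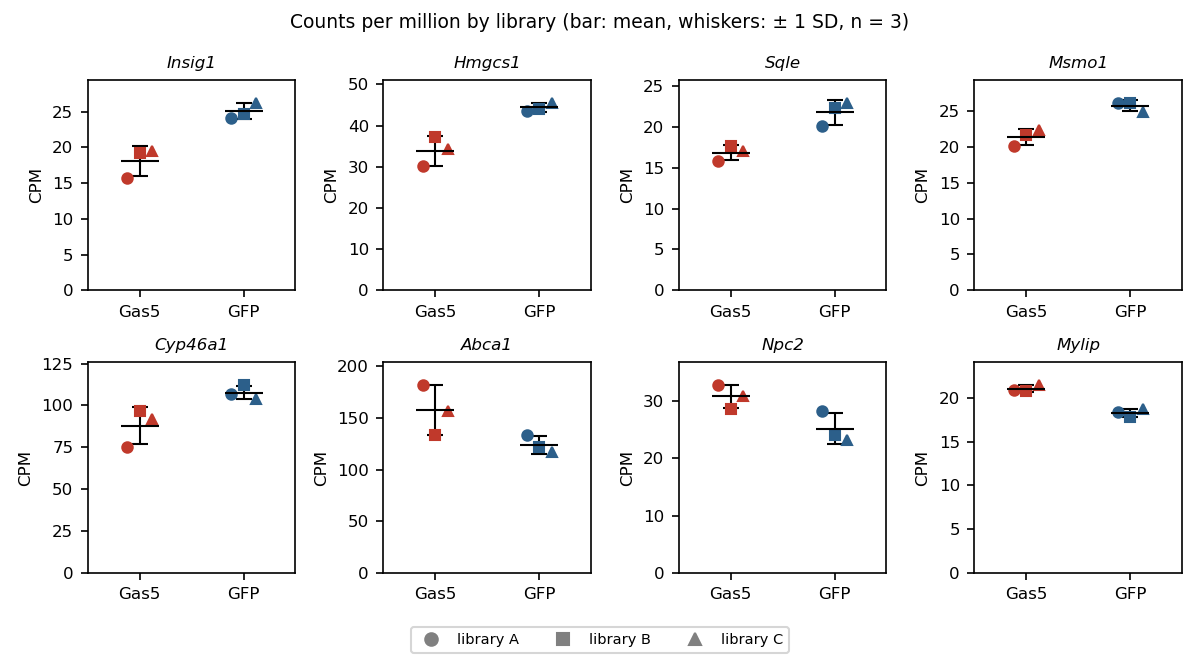
CPM of 8 cholesterol genes in each library, Gas5 on the left of each panel and GFP on the right, with the mean and 1 SD (n = 3 each) in black and axes starting at 0. Insig1, Hmgcs1, Sqle, Msmo1 and Cyp46a1 lie lower in all 3 Gas5 libraries, and Abca1, Npc2 and Mylip lie higher, with Gas5 B at 133 CPM level with GFP A for Abca1.

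Across genes, levels were compared as CPM per kilobase of unshared span, averaged over the 6 libraries. Because the counts cover introns as well as exons, this scale mixes mature and unspliced RNA. Apoe was far above the rest at 61.8, followed by Lrp1 at 7.57. Cyp46a1, Hmgcs1, Nr1h2 and Insig1 came next, between 3.51 and 2.95. Their order differed between the groups, with Nr1h2 first of the 4 in the Gas5 mean, at 3.23, and last of them in the GFP mean, at 3.25. Nsdhl at 0.289 and Nr1h3 at 0.201 were the lowest of the tested members. Exons make up 69.4% of the span of Apoe and 42.4% of that of Insig1, but 8.03% of Abca1 and 7.14% of Nsdhl, so the last named are measured over mostly intronic bases.

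Genes of neighbouring routes were taken from further lists. Of 31 tested other sterol genes, 1 was called higher and 3 lower by edgeR, where 1.48% and 3.96% of all tested genes were. At an unadjusted p under 0.05 there were 6 higher and 7 lower (10.2% and 11.2% of all tested genes). The median log2 fold change was 0.02. Abca7, a lipid transporter related to Abca1, was lower, at 10.2, 11.2 and 11.7 CPM in the Gas5 libraries, against 15.4, 15.6 and 17.2 CPM in the GFP libraries (log2 fold change -0.54, edgeR adjusted p 0.0107). Osbpl1a, an oxysterol-binding protein gene, was lower with an estimated log2 fold change of -0.37 and an edgeR adjusted p of 0.00809. Apod, which encodes a lipid-carrying apolipoprotein and was singled out after its values were seen, was higher with an estimated log2 fold change of 0.56 and an edgeR adjusted p of 0.0188.

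Fatty acid synthesis and the isoprenoid branch showed no calls. Of 18 fatty acid genes edgeR called 0, with 1 higher and 5 lower at an unadjusted p under 0.05 (10.2% and 11.2% of all tested genes), and DESeq2, limma-voom and the exact test also called 0. Mcat and Acss2 had the smallest p there, with log2 fold changes of 0.26 and -0.28. Of 12 isoprenoid branch genes, which route farnesyl units to other products, edgeR and the 3 other tools called 0, with 1 higher at an unadjusted p under 0.05 (10.2% of all tested genes). Pggt1b, a subunit of a prenyltransferase, and Rabggta had log2 fold changes of 0.17 and -0.13. The medians were -0.03 and 0.02.

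Marker levels of several cell types also differed between these libraries. Of 12 cortical excitatory neuron markers 11 had negative log2 fold changes, and their summed level was between 190 and 248 CPM in the Gas5 libraries, against between 420 and 565 CPM in the GFP libraries. All 13 tested oligodendrocyte markers had negative log2 fold changes, 1 of them called by edgeR and 8 at an unadjusted p under 0.05, where 11.2% of all tested genes were lower. For these markers DESeq2 called 3 lower, against 5.71% of all genes, limma-voom 0, against 3.79%, and the exact test 2, against 6.22%. The oligodendrocyte markers summed to between 1822 and 2289 CPM in the Gas5 libraries, against between 2328 and 2529 CPM in the GFP libraries. All 10 tested microglia markers had positive log2 fold changes, with 0 called by edgeR and 7 at an unadjusted p under 0.05, where 10.2% of all tested genes were higher. DESeq2 called 3 of them higher, against 2.76% of all genes, limma-voom 1, against 1.23%, and the exact test 5, against 3.88%. The microglia markers summed to between 311 and 340 CPM in the Gas5 libraries, against between 265 and 299 CPM in the GFP libraries, and P2ry12 and Itgam were at 0 with their spans wholly shared. Of 10 tested astrocyte markers 7 had positive log2 fold changes. Aqp4 alone was called higher (edgeR adjusted p 0.0486), where 1.48% of all tested genes were. At an unadjusted p under 0.05 there were 4 higher, where 10.2% of all were. The astrocyte markers summed to between 2753 and 3288 CPM in the Gas5 libraries, against between 3114 and 3339 CPM in the GFP libraries, in overlapping ranges with the lower mean in Gas5, and Gfap was at 0 for the same reason. The part of microglia and astrocyte levels in the values of Apoe, Abca1 and Npc2 was not tested.

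**Figure D4:**
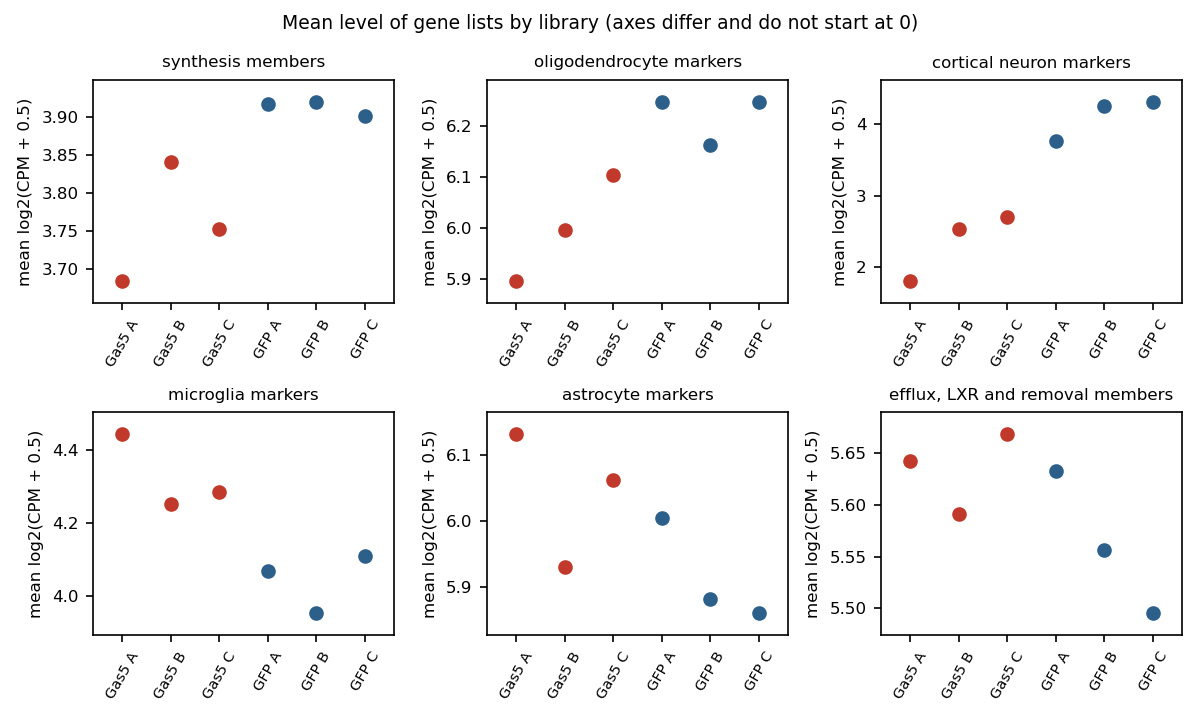
Mean log2(CPM + 0.5) of gene lists in each library, with Gas5 libraries in red on the left and GFP libraries in blue on the right, and a separate axis per panel. Synthesis genes, oligodendrocyte markers and cortical neuron markers are lowest in Gas5 A, and microglia and astrocyte markers are highest there. The efflux and removal genes, at 5.64, 5.59 and 5.67 in Gas5 A, B and C, overlap with the GFP libraries.

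When the cortical marker score entered the fit as a covariate, 17 of the 34 members changed sign and edgeR called 0 members, against 4 without it. With this score edgeR called 0 of all 17563 tested genes higher and 0 lower, against 260 and 695 without it. The log2 fold changes were then -0.01 for Hmgcs1, -0.01 for Sqle, -0.13 for Msmo1 and 0.05 for Insig1, with standard errors between 0.166 and 0.173. With the oligodendrocyte marker score instead, 5 members changed sign and 0 were called, and again 0 of all 17563 tested genes were called. The log2 fold changes were then -0.22 for Hmgcs1, -0.31 for Sqle, -0.16 for Msmo1 and -0.20 for Insig1, with standard errors between 0.114 and 0.150. Standard errors over the 34 members were larger than without a covariate by a median factor of 2.81 for the cortical score and 2.06 for the oligodendrocyte score. Neither score overlapped between the groups, so these marker levels and the vector cannot be told apart with 6 libraries.

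Leaving out 1 library at a time kept the sign of 28 of the 34 members in all 6 fits. Over these fits the log2 fold change lay between -0.53 and -0.38 for Insig1, -0.47 and -0.32 for Hmgcs1, -0.43 and -0.33 for Sqle, and -0.31 and -0.23 for Msmo1. The 4 calls did not all last. Insig1 was called in 4 of the 6 fits, Hmgcs1 in 3, Sqle in 2 and Msmo1 in 1. Without GFP B or without GFP C none of the 4 was called. Their log2 fold changes were then -0.47 and -0.43 for Insig1, -0.40 and -0.37 for Hmgcs1, -0.35 and -0.33 for Sqle, and -0.26 and -0.29 for Msmo1, with edgeR adjusted p between 0.091 and 0.151. Over all genes the calls fell to 4 higher and 111 lower without GFP B and to 6 and 101 without GFP C. Without Gas5 A, the library with the lowest Insig1, Hmgcs1 and Sqle, 2 members were called, Hmgcs1 and Insig1. Without Gas5 C 2 were called, Msmo1 and Insig1. Over all genes the calls were 112 higher and 500 lower without Gas5 A, and 194 and 589 without Gas5 C. They were 251 and 595 without Gas5 B and 236 and 611 without GFP A, against 260 and 695 with all 6 libraries.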

How the data were processed

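Total RNA depleted of ribosomal RNA was made into 6 directional libraries, per the labels' protocols. Raw gene counts were deposited, made by the authors with STAR 2.7.0 and featureCounts 1.5.0-p3 on GRCm38.p6, per the submitters' processing notes. Neither annotation release nor strand setting is given by the labels or headers. The length column equals the gene span, so intronic reads were counted, and reads in overlaps of genes are absent.

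Counts were tested in R 4.3.3 with edgeR 4.0.16: default expression filter (17563 genes), TMM scaling, quasi-likelihood F-test of Gas5 minus GFP in all 6 libraries, Benjamini-Hochberg adjustment over all tested genes, threshold 0.05. The common biological coefficient of variation was 8.28%. Standard errors are the absolute log2 fold change over the square root of F. Levels are CPM scaled by TMM, with a pseudocount of 0.5 before logarithms. The fits were tested on simulated data. Alternatives were other scalings and filters, DESeq2 1.42.0, limma-voom (limma 3.58.1), the exact test, robust dispersion, a replicate block, marker scores as covariates, a threshold of 0.1 and leaving out each library. P-values measure the spread between these libraries, which may be technical.

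The members and lists were chosen with earlier results of these data known. Every library value is given for members called and for the 3 of smallest p in each role, and 2 genes of smallest p are named from each other pathway list. Another called gene, of the other sterol list, is not reported here. Promoter sequences are from RefSeq, GRCm38.p6.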

Additional observations from a re-analysis of the deposited data

How the results depend on the processing

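Against 4 lower and 0 higher members, lower calls numbered 7 with the exact test and with a threshold of 0.1, and 0 with either marker score as a covariate. With either score 0 of all 17563 tested genes were called. Higher calls numbered 1 under upper quartile scaling and with DESeq2, and 2 without the expression filter, with the exact test and with a threshold of 0.1. Over all genes, upper quartile scaling called 317 higher and 586 lower of 17563. Without the filter 656 were called higher and 1002 lower of 28611. DESeq2 called 2.76% of all genes higher and 5.71% lower, and the exact test 3.88% and 6.22%. The share of all genes called at a threshold of 0.1 was not counted. Leaving out 1 library gave between 0 and 6 lower and between 0 and 1 higher calls. Over all genes these fits called between 101 and 611 lower and between 4 and 251 higher. The replicate letter as a block gave 6 lower and 3 higher calls, and 510 higher and 928 lower genes over all. The letters were not taken as pairs, since the labels give them no such meaning. Deviations of same-lettered libraries correlated at 0.164 for A, 0.179 for B and -0.094 for C. Those of libraries with unlike letters correlated at between -0.227 and 0.056, below A and B, so these values do not settle whether the letters are pairs. Insig1, Hmgcs1, Sqle and Msmo1 were called under every scaling, filter, tool and block tried, except Msmo1 under upper quartile scaling.

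With the cortical marker score the median log2 fold change was -0.017 over all members, -0.02 for synthesis and 0.001 for the SREBP sensor, and with the oligodendrocyte score it was -0.027 over all members and 0.022 for uptake and handling. Leaving out 1 library, the medians ranged from -0.235 to -0.14 for synthesis, from -0.103 to -0.062 for the SREBP sensor and from -0.054 to 0.014 for uptake and handling. With the cortical score 17 of 34 tested members changed sign. Of the 12 whose values are given in every library by the naming rule, 7 did so, to log2 fold changes of 0.274 for Srebf2, 0.001 for Scap, 0.052 for Insig1, -0.139 for Npc2, 0.313 for Stard4, -0.253 for Abca1 and 0.171 for Cyp46a1. The cause was not tested. Gas5 itself was at 0.38 with the cortical and 0.514 with the oligodendrocyte score, neither called, and between 0.327 and 0.416 leaving out 1 library, with the call lost without GFP B or GFP C. With 3 libraries per group, changes smaller than those called here, or as large, could be missed. In the main fit Msmo1 was called at -0.268, while Abca1 at 0.344, Tm7sf2 at -0.317 and Cyp46a1 at -0.292 were not.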
